A study of Mus musculus with 9 samples.

Results

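The circadian clock of mammalian cells is a loop of transcription factors and their repressors, and 10 of its genes were followed in cultured mouse basophils, rare granulocytes that release histamine and type 2 cytokines. The genes were taken by symbol, as a list of known clock genes: the activator gene Arntl, the repressor genes Per1, Per2, Per3, Cry1 and Cry2, the nuclear receptor genes Nr1d1 and Nr1d2, the output factor Dbp and the repressor Bhlhe40. All 10 were present among the 35673 symbols of the count table, and all 10 were among the 21341 genes that passed the filter on low counts.

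In this loop ARNTL, also called BMAL1, pairs with CLOCK and binds E-box sequences near the Per, Cry, Nr1d and Dbp genes. The PER and CRY proteins then hold the pair back, the REV-ERB receptors made from Nr1d1 and Nr1d2 repress Arntl, and DBP acts on D-box sequences of further targets. Per1 and Per2 are also known as immediate targets of cAMP signalling through the factor CREB, and Per1 is a known target of glucocorticoids. Immune cells carry this clock, and in mast cells and other leukocytes it is known for setting daily rhythms in effector responses.

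Cells were wild-type C57BL/6J, taken as bone marrow, cultured over 7 days with the cytokine IL-3 (0.3 ng/mL) and selected magnetically for the integrin CD49b. Portions of 10000 cells were then kept for 4 hours in 1 of 3 conditions, with 3 libraries in each. The difamilast group received both IL-3 and IL-33 (10 ng/mL of each) plus 3 µM difamilast, an inhibitor of phosphodiesterase 4, the enzyme family that breaks down cAMP in leukocytes. The stimulated group received the same cytokines with the vehicle DMSO, and the resting group received PBS with DMSO. The sources used here do not give the hour of harvest or say whether culture IL-3 was carried into the PBS portions. All groups were sampled at a single time after treatment, so the values are levels at that time and hold no rhythm.

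The libraries held 24812305 to 30299575 counts in the difamilast group, 11798711 to 38098584 in the stimulated group and 6261446 to 14795353 in the resting group. Of 10 basophil marker genes none was absent, and their summed level was 12780 to 13780 CPM (counts scaled to library totals adjusted by TMM factors) with difamilast, 11320 to 12060 in stimulated and 6675 to 7657 in resting libraries. With stimulation 6 of these markers rose, and Itga2, which encodes CD49b itself, was 1.75-fold lower. Markers of monocytes and macrophages were present too, with sums of 4562 to 4948, 4761 to 5046 and 6118 to 7645 CPM in the same order of groups. None of the 12 was at 0, and with stimulation 8 of them fell and 1 rose, beside 16.4% of all genes called lower and 15.3% higher. The part of these markers in the falls described here was not tested. In bulk RNA, fewer cells of a type and less RNA per cell cannot be told apart. The mast cell list held 6 genes in the table, of which Mcpt4 and Mrgprb2 stayed under 1 CPM. Tpsb2 averaged 512.5, 560.8 and 442 CPM in difamilast, stimulated and resting cells, and Cma1 162.2, 181.3 and 155.3 CPM. Neither Tpsb2 nor Cma1 was called with stimulation. The sums of the list overlapped between stimulated (738.9 to 808.6 CPM) and resting libraries (467.8 to 774.1 CPM). Kit, also on the list, was 1.51-fold lower with stimulation (adjusted p = 0.00727, edgeR). No label ties replicates to separate cultures or animals, so p-values measure only how these samples spread, which may be technical.

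Promoter windows from RefSeq (build GRCm38.p6), from 250 bases before to 50 bases after an annotated start, were matched for 8 of the 10 genes in 10 windows. Per2 and Bhlhe40 had no window, so their promoters were not searched. The windows shown include both starts of Per1, the gene with the best known CREB sites, and that of Cry1, which holds an E-box. Also shown are those of Per3, which holds D-boxes, and of Nr1d2, which holds a nuclear receptor half-site. Each is written 5′ to 3′ on the gene's own strand, and capitals mark the motifs. The letters searched on both strands were the full cAMP response element TGACGTCA, its half-site TGACG, the E-box CACGTG, the D-box TTANGTAA and the nuclear receptor half-site AGGTCA. The half-site lies within the full element, and no other motif of these contains another.
Per1 first start, chr11:69098699-69098998, plus strand: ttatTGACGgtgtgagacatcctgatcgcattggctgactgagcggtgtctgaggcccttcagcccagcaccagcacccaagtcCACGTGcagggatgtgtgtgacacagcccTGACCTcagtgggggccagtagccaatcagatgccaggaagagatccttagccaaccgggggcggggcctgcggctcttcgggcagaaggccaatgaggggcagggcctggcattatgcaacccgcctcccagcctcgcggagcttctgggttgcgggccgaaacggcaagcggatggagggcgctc
Per1 second start, chr11:69099902-69100201, plus strand: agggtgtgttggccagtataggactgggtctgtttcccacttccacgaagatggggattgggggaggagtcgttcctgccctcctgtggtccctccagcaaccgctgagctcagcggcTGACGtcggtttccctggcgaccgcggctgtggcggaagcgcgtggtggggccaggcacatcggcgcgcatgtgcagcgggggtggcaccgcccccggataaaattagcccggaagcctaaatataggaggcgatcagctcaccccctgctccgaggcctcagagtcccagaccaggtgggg
Cry1, chr10:85185005-85185304, minus strand: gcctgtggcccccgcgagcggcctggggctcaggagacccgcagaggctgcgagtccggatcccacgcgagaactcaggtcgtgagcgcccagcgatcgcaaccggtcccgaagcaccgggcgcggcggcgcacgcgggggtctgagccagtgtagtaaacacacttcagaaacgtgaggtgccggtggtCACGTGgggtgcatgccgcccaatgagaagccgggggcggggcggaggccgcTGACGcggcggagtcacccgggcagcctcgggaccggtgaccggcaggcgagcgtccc
Per3, chr4:151044616-151044915, minus strand: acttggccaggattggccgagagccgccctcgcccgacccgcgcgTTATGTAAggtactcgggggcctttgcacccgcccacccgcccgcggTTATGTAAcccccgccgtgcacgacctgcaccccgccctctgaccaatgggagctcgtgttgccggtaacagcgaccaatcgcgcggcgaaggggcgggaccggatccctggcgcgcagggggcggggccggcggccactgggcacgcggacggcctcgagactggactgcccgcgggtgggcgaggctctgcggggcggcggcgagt
Nr1d2, chr14:18239057-18239356, minus strand: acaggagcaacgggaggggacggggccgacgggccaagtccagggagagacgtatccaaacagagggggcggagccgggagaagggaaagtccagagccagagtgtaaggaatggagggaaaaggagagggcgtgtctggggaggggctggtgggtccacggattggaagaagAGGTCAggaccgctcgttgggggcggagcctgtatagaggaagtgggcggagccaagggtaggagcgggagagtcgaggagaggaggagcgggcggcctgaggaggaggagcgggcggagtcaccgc

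Per1 held a half-site of the cAMP response element in both windows, at position -246 from the first start and -132 from the second, and an E-box at -166 from the first. Cry1 held an E-box at -60 and a half-site at -8, and Cry2 held a half-site on the opposite strand. Per3 held a pair of D-boxes, at -205 and -158, and nuclear receptor half-sites lay at -77 in Nr1d2, at -137 on the opposite strand in the first window of Per1, and at position 32 after the start in the second window of Arntl. No window of the 8 matched clock genes held the full element, which was present in 1.79% of the 32851 windows of all genes. Per2 and Bhlhe40, without a window, are not covered by this. The half-site was present in 20.8% of all windows, the E-box in 7.15%, the D-box in 2.32% and the nuclear receptor half-site in 16.3%. The windows of Nr1d1 and Dbp, and the first window of Arntl, held none of these letters. For Nr1d1 and Cry2 the sequence at the RefSeq start was not found in a GENCODE vM21 transcript of the gene. A match is a description of these 300 bases and not a measured site.

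Between genes, levels were compared per length, as RPKM, which is CPM divided by the exonic length in kilobases. In stimulated cells Bhlhe40 stood far above the others at 50.4 ± 2.75 RPKM (SD, n = 3), and Nr1d1 followed at 8.70 ± 0.536. Cry1 (5.36 ± 0.317), Per1 (4.71 ± 0.655) and Cry2 (3.95 ± 0.121) came next, and in this run the libraries of each neighbouring pair overlapped. Arntl averaged 2.28 ± 0.0859, Nr1d2 1.66 ± 0.114 and Dbp 1.17 ± 0.200, and the lowest levels were those of Per3 (0.534 ± 0.0361) and Per2 (0.367 ± 0.0529). With difamilast the order of the 10 was the same, with a single overlap between neighbours, Cry1 (6.81 ± 0.169) and Per1 (6.26 ± 0.585). The order was another in resting cells, where Bhlhe40 (16.3 ± 1.46) and Nr1d1 (15.2 ± 2.23) overlapped, Per1 (9.45 ± 2.43) lay above Cry1 (6.67 ± 0.709), and Nr1d2 (4.31 ± 1.12) lay above Arntl (3.02 ± 0.299).

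**Figure D1:**
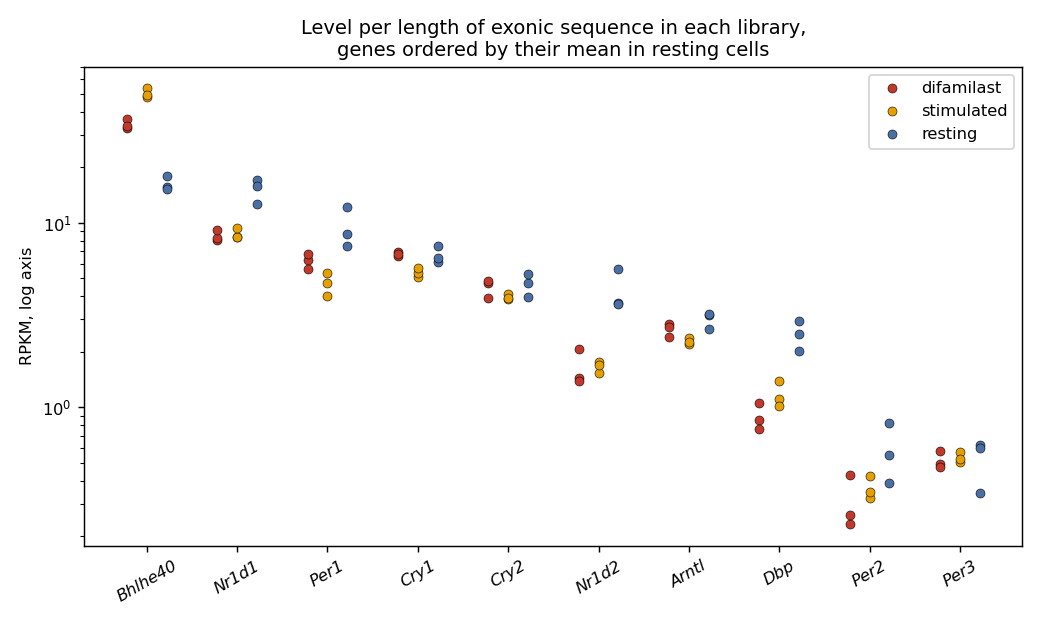
Level of each clock gene per kilobase of exonic sequence (RPKM, log axis) in the 9 libraries, genes ordered from left to right by their mean in resting cells and points coloured by group. Bhlhe40 stands highest in difamilast and stimulated libraries and shares the top of the resting range with Nr1d1, while Per2 and Per3 lie under 1 RPKM in every library.

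Stimulated cells were first set against resting cells, which addresses the response to the cytokines in vehicle. Bhlhe40 rose about 3-fold, and Nr1d2, Dbp, Per1, Nr1d1 and Arntl fell. In edgeR's quasi-likelihood fit, with p-values adjusted by Benjamini-Hochberg over all tested genes, 1 of the 10 rose, where 15.3% of all genes did, and 5 fell, where 16.4% of all genes did (31.7% in either direction). Over the 10 genes the log2 fold changes had a median of -0.56, beside 0.06 over all tested genes. In 7 of the 10 the libraries of the groups did not overlap, against 43.7% of all genes.

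Bhlhe40, which encodes the E-box repressor DEC1 (chromosome 6, 108660629 to 108666925, plus strand), lay at 226.8, 251.6 and 232.9 CPM in the stimulated libraries and at 84.5, 73.2 and 72.2 CPM in the resting libraries. Every stimulated library lay above every resting library by a wide margin. The log2 fold change was 1.63 ± 0.105 (SE; adjusted p = 1.41e-08, edgeR), 3.09-fold higher. An antisense gene, 0610040F04Rik, shares 118 of the 4705 exonic bases of Bhlhe40, but averaged 1.06 ± 0.315 CPM in stimulated and 0.190 ± 0.177 CPM in resting cells (adjusted p = 0.0414).

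Both nuclear receptor genes fell. Nr1d2, which encodes REV-ERB beta (chromosome 14, 18204054 to 18239127, minus strand), lay at 9.52, 8.31 and 9.15 CPM in stimulated and at 30.3, 19.9 and 19.8 CPM in resting libraries. Resting replicate 1 was the highest of all, and the groups were apart without it as well. The fall was 1.38 ± 0.20 on the log2 scale (SE; adjusted p = 8.84e-05, edgeR), 2.61-fold lower, and without resting replicate 1 the log2 fold change was -1.18. Nr1d1, which encodes REV-ERB alpha (chromosome 11, 98767932 to 98775333, minus strand), lay at 25.8, 25.9 and 28.7 CPM in stimulated and at 52.2, 48.7 and 39.0 CPM in resting libraries, 1.75-fold lower (log2 fold change -0.80 ± 0.13 SE, adjusted p = 0.00024). Its exons overlap those of the thyroid hormone receptor gene Thra on the opposite strand over 263 bases, 8.55% of the exonic sequence of Nr1d1. Thra also fell, to 4.93 ± 0.674 CPM in stimulated cells, against 10.7 ± 1.98 CPM in resting cells (log2 fold change -1.13, adjusted p = 0.00042), and with the strand of counting unknown, reads in the shared bases could belong to either gene.

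Dbp (chromosome 7, 45705088 to 45710203, plus strand), a factor of the PAR bZIP family and a classic output of the clock, lay at 3.33, 3.03 and 4.18 CPM in stimulated and at 7.48, 8.81 and 6.08 CPM in resting libraries, with no overlap. It was 2.14-fold lower (log2 fold change -1.10 ± 0.22 SE, adjusted p = 0.00141, edgeR). Its counts were few, 35 to 160 in these 6 libraries, and 18% of its exonic bases lie on the opposite strand of the sphingosine kinase gene Sphk2. Sphk2 had 19.7 ± 4.44 CPM in stimulated and 26.6 ± 7.86 CPM in resting cells (log2 fold change -0.47, adjusted p = 0.105, edgeR). As for Nr1d1 and Thra, reads in the bases shared by Dbp and Sphk2 could belong to either gene.

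Of the period genes, Per1 (chromosome 11, 69095217 to 69109960, plus strand) lay at 26.7, 22.7 and 30.1 CPM in stimulated and at 68.5, 48.9 and 42.2 CPM in resting libraries. Resting replicate 1 again held the highest level, and no stimulated library reached the lowest resting library. Per1 was 2.01-fold lower (log2 fold change -1.01 ± 0.17 SE, adjusted p = 0.000296, edgeR), and without resting replicate 1 the log2 fold change was -0.82. Per2 (chromosome 1, 91415982 to 91459324, minus strand) was near the limit of the depth, with 18 to 88 counts in these 6 libraries. It lay at 1.90, 2.05 and 2.50 CPM in stimulated and at 3.22, 4.84 and 2.28 CPM in resting libraries, and the groups overlapped. Its log2 fold change of -0.71 (95% interval -1.37 to -0.05, adjusted p = 0.0955) did not pass. It passed without resting replicate 3 (-0.93, adjusted p = 0.037), and without resting replicate 2 it was -0.41 (adjusted p = 0.396). Per3 (chromosome 4, 151003652 to 151044665, minus strand), whose promoter window holds the D-boxes, had 4.85, 5.52 and 5.03 CPM in stimulated and 6.01, 5.78 and 3.29 CPM in resting libraries, a log2 fold change of 0.00 with an interval from -0.47 to 0.46.

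The activator gene Arntl (chromosome 7, 113207465 to 113314126, plus strand) lay at 17.8, 16.5 and 17.1 CPM in stimulated and at 23.9, 20.1 and 24.1 CPM in resting libraries. The groups did not overlap, but the difference was small, 1.32-fold lower (log2 fold change -0.41 ± 0.14 SE, adjusted p = 0.0345, edgeR). The call was lost when stimulated replicate 2 (adjusted p = 0.122) or 3 (0.0965), resting replicate 3 (0.0658) or difamilast replicate 2 (0.0532) was left out, and with no filter on low counts (0.0513). Over all alternatives its adjusted p ran from 0.000102 to 0.122. The cryptochrome genes did not pass. Cry1 (chromosome 10, 85131700 to 85185064, minus strand) had 16.9, 17.8 and 19.0 CPM in stimulated and 25.0, 20.5 and 21.4 CPM in resting libraries, without overlap, and a log2 fold change of -0.31 (95% interval -0.59 to -0.03, adjusted p = 0.0875). It passed with DESeq2 (adjusted p = 0.0387) and without resting replicate 2 (0.0457). Cry2 (chromosome 2, 92403646 to 92434043, minus strand) had 24.4, 25.9 and 24.6 CPM in stimulated and 29.9, 24.9 and 33.4 CPM in resting libraries (log2 fold change -0.23, 95% interval -0.52 to 0.07, adjusted p = 0.236).

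**Figure D2:**
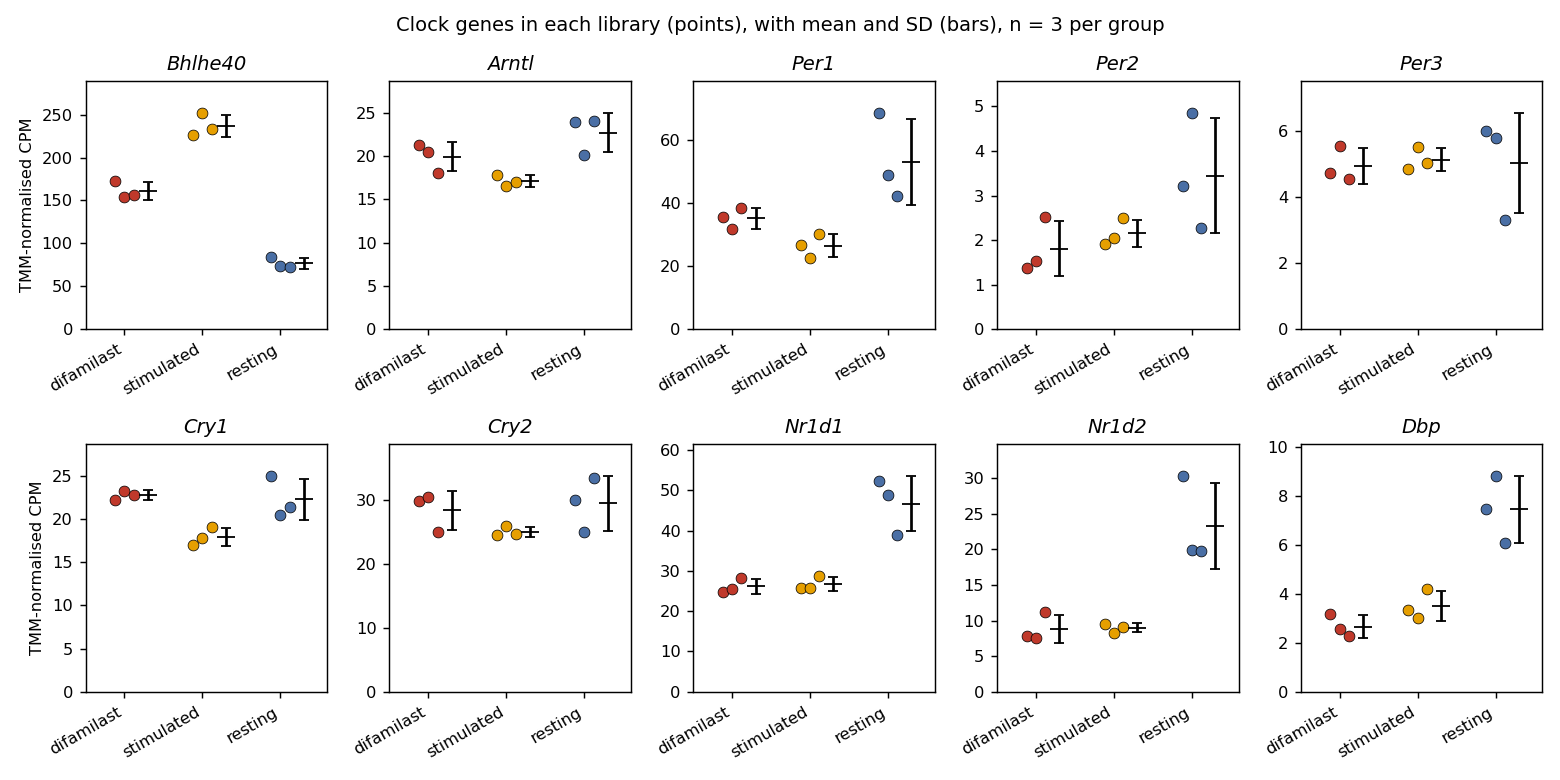
TMM-normalised CPM of each clock gene in the 3 libraries of the difamilast, stimulated and resting groups (points), with the mean and SD beside them; each panel starts at 0 and has its own scale. Bhlhe40 is highest in stimulated libraries, between 226.8 and 251.6 CPM, whereas Nr1d1, Nr1d2, Dbp and Per1 are highest in resting libraries.

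The sizes of these changes depend on the scaling between groups. The TMM factors were 0.871 to 0.892 in stimulated, 0.851 to 0.916 in difamilast and 1.23 to 1.32 in resting libraries. Library totals in place of TMM were tried as a setting chosen with the data in view. The median of all tested genes then moved to -0.47 in stimulated over resting cells, and 41% of all genes were called lower. The log2 fold change of Bhlhe40 was then 1.10 and that of Per1 -1.54, and 8 of the 10 clock genes were called lower, Cry1 (-0.84), Cry2 (-0.76) and Per2 (-1.23) being the added ones. The falls reported here are relative to the median gene.

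Difamilast was then set against vehicle under the same cytokines, which addresses the inhibition of phosphodiesterase 4. Bhlhe40 fell and was the only 1 of the 10 that passed; 1.24% of all genes were called lower and 2.21% higher, 3.44% in all. No clock gene was called higher by edgeR, by DESeq2 or by limma-voom, while 2 were higher at an unadjusted p under 0.05, Per1 and Cry1. Over the 10 genes the log2 fold changes had a median of -0.03, beside 0.00 over all tested genes. Groups did not overlap in 4 of the 10, against 24.8% of all genes. Both comparisons use the same stimulated libraries.

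Bhlhe40 lay at 172.5, 153.9 and 156.5 CPM in difamilast libraries, against 226.8, 251.6 and 232.9 CPM in stimulated libraries, and the groups were well apart. The log2 fold change was -0.56 ± 0.10 (SE; adjusted p = 0.00457, edgeR), 1.47-fold lower. Without difamilast replicate 2 the adjusted p was 0.0514, and over all alternatives the log2 fold change lay between -0.60 and -0.51. Difamilast cells still held more Bhlhe40 than resting cells, by 2.10-fold (log2 fold change 1.07 ± 0.10, adjusted p = 1.3e-06).

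Per1 lay at 35.6, 31.8 and 38.3 CPM in difamilast libraries, against 26.7, 22.7 and 30.1 CPM in stimulated libraries. All difamilast libraries were above all stimulated libraries, and the gap between the nearest libraries was small. The log2 fold change was 0.41 ± 0.17 (SE), with a 95% interval from 0.05 to 0.77 that is not adjusted for the number of genes, and the adjusted p was 0.258. It passed without resting replicate 1 (adjusted p = 0.0404) and in a fit of the 2 groups alone (0.0497), and over the other alternatives its adjusted p ran up to 0.646. Per2 had 1.37, 1.53 and 2.51 CPM with difamilast, against 1.90, 2.05 and 2.50 CPM in stimulated libraries, a log2 fold change of -0.29 with an interval from -0.95 to 0.37. At 20 to 77 counts per library, that interval does not exclude a change of Per2 in either direction up to those bounds.

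Cry1 lay at 22.1, 23.3 and 22.8 CPM in difamilast libraries, against 16.9, 17.8 and 19.0 CPM in stimulated libraries, without overlap. Its log2 fold change of 0.34 ± 0.13 (SE) had an adjusted p of 0.218. Arntl had 21.2, 20.5 and 18.0 CPM with difamilast, against 17.8, 16.5 and 17.1 CPM in stimulated libraries (log2 fold change 0.22, adjusted p = 0.489). The interval of Arntl, from -0.06 to 0.51, and those of the remaining genes spanned 0. Nr1d1 averaged 26.1 ± 1.84 CPM with difamilast and 26.8 ± 1.65 CPM in stimulated cells (SD, n = 3 each), with an interval of the log2 fold change from -0.32 to 0.24. Nr1d2 averaged 8.81 ± 2.03 and 8.99 ± 0.617 CPM in difamilast and stimulated cells, with an interval from -0.46 to 0.41. Dbp averaged 2.67 ± 0.460 CPM with difamilast and 3.51 ± 0.600 CPM in stimulated cells (log2 fold change -0.40, interval -0.88 to 0.09). Cry2 averaged 28.4 ± 3.04 and 25.0 ± 0.766 CPM in difamilast and stimulated cells, and Per3 4.95 ± 0.536 and 5.13 ± 0.347 CPM.

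**Figure D3:**
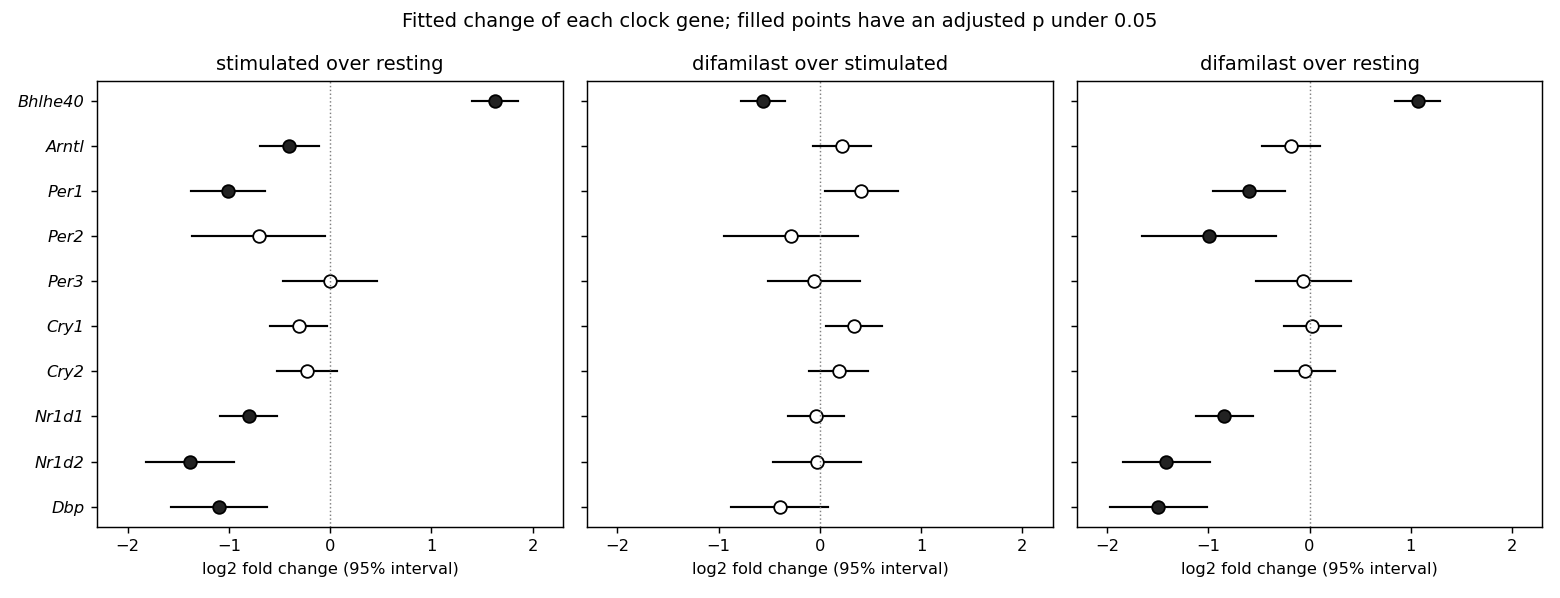
Fitted log2 fold change of each clock gene (points) with its unadjusted 95% interval (bars) in the 3 comparisons; filled points have an adjusted p under 0.05. In difamilast over stimulated cells the single filled point is Bhlhe40 at -0.56, and the intervals of Nr1d1, Nr1d2 and Per3 span 0 in that panel.

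Set against resting cells, the difamilast group had 1 clock gene higher, Bhlhe40, and 5 lower, where 16.4% of all genes were called in each direction and 32.8% in either; groups did not overlap in 5 of the 10, against 42.9% of all genes. These resting libraries are the ones of the first comparison. Dbp was lowest relative to rest, at 3.17, 2.56 and 2.28 CPM in difamilast libraries, against 7.48, 8.81 and 6.08 CPM in resting libraries (2.81-fold lower, log2 fold change -1.49 ± 0.22 SE, adjusted p = 0.000109). Nr1d2 was 2.66-fold and Nr1d1 1.79-fold lower (adjusted p = 6.9e-05 and 0.000157). Per1 averaged 35.2 ± 3.30 CPM with difamilast and 53.2 ± 13.7 CPM in resting cells (1.52-fold lower, adjusted p = 0.0121), and Per2 1.81 ± 0.618 and 3.45 ± 1.30 CPM (1.99-fold lower, adjusted p = 0.0228). Without difamilast replicate 2 neither Per1 (adjusted p = 0.0595) nor Per2 (0.0856) passed, which left 3 genes lower; Per2 also did not pass without resting replicate 2 (0.146) or difamilast replicate 1 (0.0972), or after thinning to the shallowest library (0.25). Cry1 (log2 fold change 0.03), Cry2 (-0.04), Per3 (-0.06) and Arntl (-0.18) were not called. With library totals in place of TMM these 4 and the 5 above were all lower, Cry1 at -0.48 included, where 44.4% of all genes were called lower.

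The rest of the pathway was read from a list of 28 further clock genes, of which 27 were tested. With stimulation 14 fell and 4 rose, beside 16.4% and 15.3% of all genes, with a median log2 fold change of -0.42. With libraries left out, 10 to 15 fell and 2 to 4 rose. With library totals in place of TMM 18 fell, where 41% of all genes were called lower. The falls included relatives and regulators of the clock genes above. Hlf and Tef, the PAR bZIP relatives of Dbp, were 3.47-fold and 2.03-fold lower, with Hlf at 5.18 ± 0.286 CPM in stimulated and 17.9 ± 2.69 CPM in resting cells (SD, n = 3). Bhlhe41, the closest relative of Bhlhe40, was 2.47-fold lower at 9.45 ± 0.896 CPM in stimulated and 23.3 ± 2.22 CPM in resting cells, opposite in direction to Bhlhe40. Rora, whose product activates Arntl at the elements that the REV-ERB receptors repress, was 2.35-fold lower, Ncor1, a corepressor that REV-ERB receptors recruit, 1.85-fold, and Ciart, a clock repressor, 2.12-fold. The smallest adjusted p of these 6 was 3.23e-07, for Rora, and the greatest 0.000242, for Ciart (edgeR). Clock, the partner of Arntl, had a log2 fold change of -0.34 (adjusted p = 0.138).

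The rises were in Fbxl21, Nampt, Nfil3 and Fbxw11. Fbxl21, a ubiquitin ligase subunit that acts on cryptochromes, was 14.3-fold higher, at 105 ± 4.29 CPM in stimulated and 7.18 ± 1.59 CPM in resting cells (adjusted p = 4.58e-11). Its gene (chromosome 13, 56522472 to 56537898, plus strand) lies 40.2 kb from the cytokine gene Il9, on the opposite strand and with no shared exonic base. Il9 averaged 2372 ± 331 CPM in stimulated and 125 ± 15.1 CPM in resting cells, and whether the 2 rises are linked was not tested. Nampt, the clock-controlled enzyme of NAD synthesis, was 3.25-fold higher (adjusted p = 1.21e-08). These 2 calls held under every alternative. The calls of Nfil3 (log2 fold change 0.41) and Fbxw11 (0.42) were both lost without resting replicate 2 or 3 or stimulated replicate 1 or 2. With library totals their log2 fold changes were -0.12 and -0.11. The libraries of Fbxw11 overlapped between groups, and its call was less stable. It was also lost with DESeq2 (adjusted p = 0.0952), and in edgeR with RLE scaling (0.082) or the 2 groups alone (0.0667). The same held without stimulated replicate 3 (0.116) or difamilast replicate 1 (0.0631) or 2 (0.0596).

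With difamilast 2 of the 27 rose over stimulated cells, beside 2.21% of all genes, and none fell by edgeR, DESeq2 or limma-voom, with 0 lower at an unadjusted p under 0.05. Nfil3, the D-box repressor that opposes DBP, lay at 449 ± 69.9 CPM with difamilast and 258 ± 2.46 CPM in stimulated cells (1.74-fold higher, adjusted p = 0.00121). Sirt1, an NAD-dependent deacetylase, lay at 56.2 ± 8.34 and 34.7 ± 6.20 CPM in difamilast and stimulated cells (1.63-fold higher, adjusted p = 0.0281). The call of Nfil3 held under every alternative. That of Sirt1 was lost without stimulated replicate 1 (adjusted p = 0.0532), 2 (0.0906) or 3 (0.178) or difamilast replicate 2 (0.178) or 3 (0.0544), and with the length trend taken out (0.0523). Hlf, Tef, Bhlhe41, Rora, Ciart, Ncor1 and Fbxl21 were not called in this comparison, with log2 fold changes between -0.21 and 0.24.

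**Figure D4:**
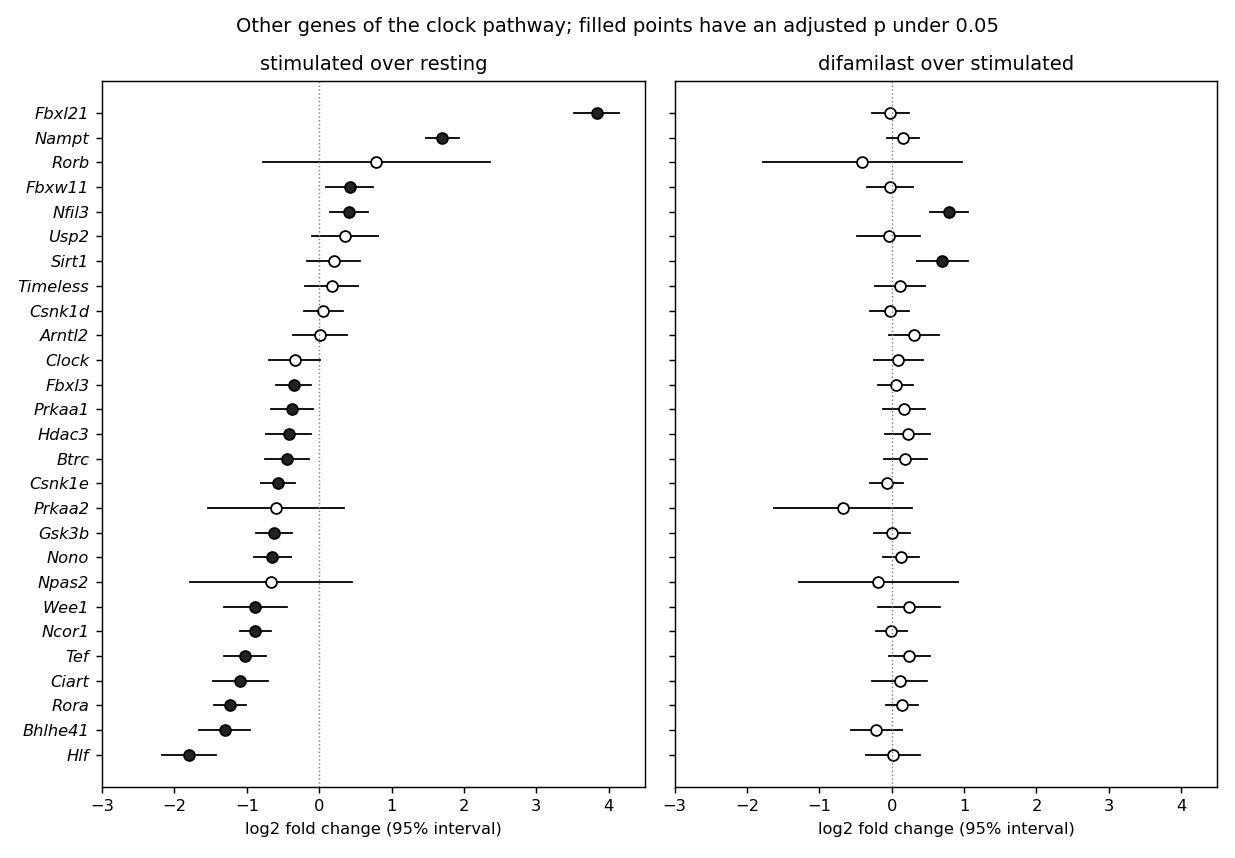
Log2 fold change (points) with unadjusted 95% interval (bars) of the 27 tested further clock genes, ordered by stimulation, in stimulated over resting cells (left) and difamilast over stimulated cells (right); filled points have an adjusted p under 0.05. Fbxl21 stands at the top on the left at 3.83 and Hlf at the bottom at -1.79, while on the right the filled points are Nfil3 and Sirt1.

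Per1, Per2 and Bhlhe40 are counted among genes known to respond to cAMP and CREB, and a list of 26 such genes, partly known from earlier results of these data, was set beside them. Of 24 tested genes, 13 rose and 1 fell with difamilast over stimulated cells, beside 2.21% and 1.24% of all genes. Their log2 fold changes had a median of 0.74, beside 0.00 over all tested genes. The single fall was that of Bhlhe40. The kinase gene Sik1 rose by 2.03 on the log2 scale, Fos 3.39-fold, the repressor gene Crem 2.76-fold, Dusp1, which encodes a MAPK phosphatase, 2.70-fold, Areg, which encodes amphiregulin, 2.67-fold and Rgs1, a G protein regulator, 2.67-fold (adjusted p = 8.65e-07 to 5.77e-06). Beside these, the log2 fold change of Per1 was 0.41 and that of Per2 -0.29, neither past the threshold. In stimulated over resting cells the list was split, with 9 of the 24 higher and 9 lower, beside 15.3% and 16.4% of all genes. Crem and Sik1 were, like Per1, among the lower, Crem at 247 ± 15.3 CPM against 476 ± 51.4 CPM and Sik1 at 12.4 ± 1.44 CPM against 29.3 ± 2.35 CPM. Fos and Rgs1 were also lower, whereas Areg (8.47-fold) and Dusp1 (1.48-fold) were, like Bhlhe40, higher. With difamilast Crem was 1.43-fold and Sik1 1.75-fold higher than at rest. Over resting cells, 13 of the 24 were higher with difamilast and 5 lower, beside 16.4% of all genes in each direction. The 5 lower were Per1 (1.52-fold), Per2 (1.99-fold), Fos (1.28-fold, adjusted p = 0.0487, edgeR), Fosb (1.95-fold) and the phosphodiesterase gene Pde4d (1.62-fold).

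**Figure D5:**
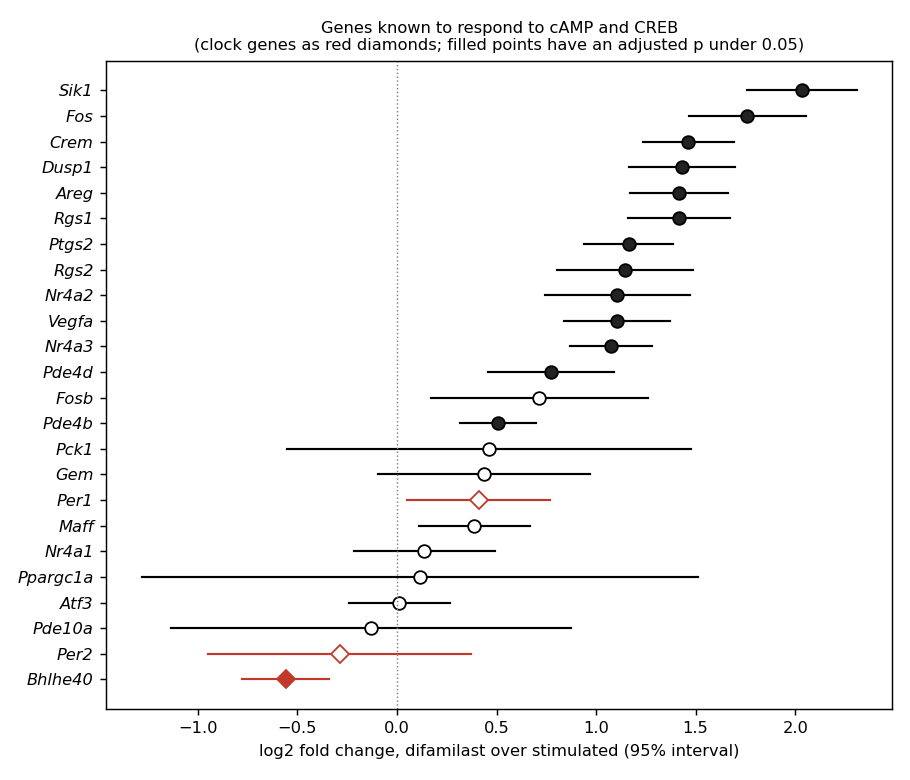
Log2 fold change in difamilast over stimulated cells (points) with unadjusted 95% interval (bars) of the 24 tested genes known to respond to cAMP and CREB, clock genes as red diamonds; filled points have an adjusted p under 0.05. Sik1 stands highest at 2.03, Per1 lies among the open points at 0.41, and Bhlhe40 is the lowest at -0.56.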

How the data were processed

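The deposited table holds raw read counts per gene symbol for 9 libraries. The authors, per the labels' protocols, caught polyadenylated RNA with oligo-dT beads and amplified its cDNA by TAS-Seq. Cutadapt 4.1, Bowtie2 2.4.5 and the build GRCm38 are listed, with no role, per the submitters' processing notes. Neither the counting tool nor strand handling is named in these sources. No molecular identifiers are mentioned, so counts may include amplification copies, and depth covers counting error only.

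Groups and replicate numbers came from the sample titles. All 9 libraries entered 1 model with no covariate, fitted by edgeR 4.0.16 in R 4.3.3 (robust quasi-likelihood, TMM scaling, 6 residual degrees of freedom). Genes were kept by filterByExpr at a minimum count of 10 and a minimum total of 15. P-values were adjusted by Benjamini-Hochberg over 21341 genes and called at 0.05. The steps were tested on simulated counts with 200 changed genes. RPKM used TMM-scaled totals and the exonic length in GENCODE vM21 (GRCm38), where 34218 symbols matched a single gene.

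Alternatives were DESeq2 1.42.0, limma-voom (limma 3.58.1), RLE scaling, no filter, the 2 groups alone, a block for replicate number, each library left out, removal of a lowess trend with transcript length (span 0.3, prior count 2), and thinning to the shallowest library. Library totals without TMM were added later. The clock genes and lists were chosen with earlier results of these data known. Every clock gene is named. Of the other lists, up to 6 genes called with difamilast, and of the further clock genes up to 8 called with stimulation, are named by smallest p. Clock, Fbxw11, Itga2, Kit, Tpsb2, Cma1, Fosb, Pde4d, Nfil3 as a rise with stimulation, Il9, Thra, Sphk2 and 0610040F04Rik were named after their values were seen. For Per1, Per2 and Bhlhe40 the 3 other genes with the highest Pearson correlation of log2 CPM, among genes averaging at least 10 CPM, are named. Some items that these rules select are not reported here.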

Additional observations from a re-analysis of the deposited data

How the results depend on the processing

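Each of the 30 log2 fold changes of the clock genes was refitted under 18 alternatives, and 490 of the 540 refits kept direction and side of the threshold. Nr1d1, Nr1d2, Dbp, Per1 and Bhlhe40 kept their calls in stimulated over resting cells under all 18. The count of clock genes called lower in that comparison was 5 and ran from 4 to 6 with libraries left out; it was 8 with library totals. In difamilast over resting cells it was 5, 3 to 5 with libraries left out and 9 with library totals. In difamilast over stimulated cells the count higher was 0, 0 to 1 with libraries left out and 1 in a fit of the 2 groups alone, and the count lower was 1, 0 to 1 with libraries left out. The cause of these moves was not tested, apart from the scaling, which moved all genes.

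Counts over all genes moved as follows. With library totals, 1326 rose and 8749 fell in stimulated over resting cells (TMM: 3273 and 3497), and 1507 rose and 9472 fell in difamilast over resting cells (3501 and 3500). In difamilast over stimulated cells, 471 rose and 264 fell. There 831 rose and 842 fell in a fit of the 2 groups alone, 441 fell with DESeq2, 662 fell with no filter, and with libraries left out 258 to 870 rose and 89 to 823 fell; the extremes are without difamilast replicate 2 and without resting replicate 1.

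Changes of sign befell values that were not called under TMM. Per3 in stimulated over resting cells, 0.00 (log2), was 0.005 with limma-voom, 0.001 in the fit of the 2 groups, 0.035 with the replicate block and 0.093 after removal of the length trend, and -0.226 to 0.089 with libraries left out. In difamilast over stimulated cells, thinning gave 0.282 for Per2 (-0.29 unthinned), 0.013 for Per3 and 0.02 for Nr1d1. With libraries left out, Nr1d1 ran from -0.094 to 0.017, Nr1d2 from -0.227 to 0.077 and Per3 from -0.151 to 0.001. In difamilast over resting cells, Cry1 was -0.003 with DESeq2, -0.485 with library totals and -0.074 to 0.092 with libraries left out, Cry2 was 0.005 after thinning and -0.194 to 0.049 with libraries left out, and Per3 ran from -0.283 to 0.031.

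Pairing of the samples by replicate number was not visible in the counts. Deviations of same-numbered libraries from their group means correlated between -0.08 and 0.11, against -0.15 to 0.17 for other pairs. With 3 libraries per group, this check cannot tell whether same-numbered samples share a culture or animal. With the replicate block 4 clock genes fell with stimulation, Arntl being lost (adjusted p = 0.0525), and 1 rose; the other counts of clock genes were as without it.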

Other observations

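Genes known to respond to glucocorticoids, of which Per1 is also one, were read from a list of 12. With stimulation 6 fell and 4 rose, beside 16.4% and 15.3% of all genes, with a median log2 fold change of -0.37 beside 0.06 over all genes. With difamilast over stimulated cells 2 rose by edgeR, Tsc22d3 and Dusp1, beside 2.21% of all genes. Tsc22d3, which encodes the leucine zipper protein GILZ, lay at 74.1 ± 13.4 CPM with difamilast and 26.9 ± 1.31 CPM in stimulated cells (SD, n = 3 each; 2.75-fold higher, adjusted p = 2.59e-05). Dusp1, which is also on the cAMP list, lay at 185.9 ± 26.6 and 68.96 ± 2.99 CPM in the same groups.

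The genes whose log2 CPM over the 9 libraries was most like that of Per1 were Snx29 (Pearson r = 0.991), Tia1 (0.975) and Tnrc18 (0.974), out of 7821 genes searched. Those most like Bhlhe40 were Cep85 (r = 0.996), Septin11 (0.995) and Gsr (0.993). Cep85 averaged 60.0 CPM with difamilast, 83.7 CPM in stimulated and 31.1 CPM in resting cells. Dnajc16 (r = 0.945) and Cdv3 (0.941) were most like Per2. The libraries fall into 3 groups whose differences enter each r, and how much of each r they set was not tested. The best of many genes is also high by choice, so these values are a description and carry no p.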
